A study of Rattus norvegicus with 28 samples.

Results

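The organic ion and drug transporters described here are the genes of the Slc22a, Slc47a, Slco, Abcb, Abcc and Abcg families. Every gene whose symbol belongs to these families and that the arrays measured was taken, and this rule uses no measured value. The deposited kidney arrays measured 52 of them with a probe set that names a single gene, out of 14217 genes in all. The 52 comprise 16 Slc22a genes, 1 Slc47a gene, 13 Slco genes, 7 Abcb genes, 9 Abcc genes and 6 Abcg genes.

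RNA of whole kidneys from female rats was measured on 28 Affymetrix arrays in 4 groups of 7. SBN/y and SBH/y are inbred Sabra rats, of which SBH/y becomes hypertensive on salt and SBN/y does not, and the series concerns how proteinuria arises. Each strain was studied with 2 kidneys, after a sham operation, and with 1 kidney, after uninephrectomy, in which one kidney is taken out. The rats were operated on young and lived for 4 months more, until an age of 5 months. No transgene, drug or diet difference between the groups is named in the labels. Replicates carry numbers from 1 to 7, but no label ties each to its own animal, and all p-values here then describe only how these samples vary, which may be technical.

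Kidney tubule cells clear organic ions, toxins and drugs from the blood in a pair of steps. Carriers in the basolateral membrane take up the solute from the blood side, and carriers or ATP-driven pumps in the apical brush border pass it into the urine. Slc22a proteins are the classical uptake carriers, with organic cation, organic anion, carnitine and urate transporters among them. Slc47a1 encodes MATE1, which exchanges organic cations for protons at the brush border. Slco proteins carry bile acids, steroid conjugates, thyroid hormones and prostaglandins. Abcb, Abcc and Abcg proteins use ATP to export drugs, conjugates, lipids and urate, and some of them work in mitochondria or as subunits of potassium channels.

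The stretches of DNA just before the annotated starts of Slc22a2, Slc22a7 and Abcc4 are shown because the measured difference of these members after uninephrectomy in SBH/y is described in detail further on. RefSeq's promoter table for the assembly GRCr8 held 43 of the 52 members, and 9 were not in it (Abcb11, Abcc3, Abcc5, Abcc8, Abcg1, Slc22a6, Slc47a1, Slco1c1 and Slco5a1). Each sequence gives the 250 bases before the start, 5′ to 3′ on the strand of the gene. Slc22a2 lies on the minus strand at chr1:50711020-50711269, Slc22a7 on the plus strand at chr9:22045248-22045497 and Abcc4 on the minus strand at chr15:102181365-102181614. Capitals mark matches to the CCAAT box (CCAAT, or ATTGG on the other strand) and to the GC box (GGGCGG, or CCGCCC on the other strand).
Slc22a2: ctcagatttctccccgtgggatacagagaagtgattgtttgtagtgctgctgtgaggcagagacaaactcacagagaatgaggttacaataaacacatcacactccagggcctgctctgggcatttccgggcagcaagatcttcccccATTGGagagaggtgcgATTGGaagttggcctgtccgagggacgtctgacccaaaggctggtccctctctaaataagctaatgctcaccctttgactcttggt
Slc22a7: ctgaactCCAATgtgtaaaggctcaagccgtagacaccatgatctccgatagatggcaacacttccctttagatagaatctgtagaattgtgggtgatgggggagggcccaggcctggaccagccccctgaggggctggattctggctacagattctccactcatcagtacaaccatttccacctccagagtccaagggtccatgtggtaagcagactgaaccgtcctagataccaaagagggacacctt
Abcc4: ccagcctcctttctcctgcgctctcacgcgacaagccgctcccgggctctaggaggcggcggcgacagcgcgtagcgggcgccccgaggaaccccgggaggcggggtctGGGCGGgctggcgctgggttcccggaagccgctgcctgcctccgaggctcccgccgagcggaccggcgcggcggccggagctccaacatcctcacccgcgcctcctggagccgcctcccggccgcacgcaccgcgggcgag

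The Slc22a2 stretch held 2 reverse-strand CCAAT matches, 102 and 86 bases before the start, and the Slc22a7 stretch held 1 CCAAT match on its own strand, 243 bases before the start. The Abcc4 stretch held 1 GC box, 141 bases before the start, and its GC content of 77.6% compared with 51.2% for Slc22a2 and 52% for Slc22a7. Over the same 250-base window, CCAAT occurred on either strand in 34.3% of all 27456 promoters and in 37.2% of the 43 member promoters. GGGCGG occurred in 32.4% of all promoters and in 46.5% of the member promoters. GTTAAT, a half-site of the HNF1 factors, occurred in 6.46% of all promoters and in 5 of the 43 member promoters (11.6%), those of Abcc2, Slc22a24, Slc22a25, Slc22a8 and Slco1b2. AGGTCA, the half-site that many nuclear receptors bind, occurred in 13.7% of all and 18.6% of member promoters, and TATAAA in 13.1% and 16.3%. CACGTG occurred in 5.79% and 4.65%, TGACNNNGC, the core of the antioxidant response element, in 10.2% and 9.3%, and TTATGTAA, the D-box, in 0.816% and in 0 of the 43. These matches are letters found in a window and were not set against any measured binding.

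Values are log2 expression values of the probe set with the highest mean for each gene, and differences are on the same log2 scale, where 1 unit is a doubling. A gene was called when its p-value from limma, adjusted by the Benjamini-Hochberg method over 31042 probe sets, was below 0.05. Array medians lay between 5.72 and 5.77. The deposited values carry no measure of detection above background. The members' means lay above the lowest array median in every group for 34 genes, below it in every group for 15 genes, and below it in some groups for Abcc2, Slc22a21 and Slco1a4. The 15 dim genes included the bile salt pump Abcb11, the sterol half-transporters Abcg5 and Abcg8, Abcg4, the organic cation transporter Slc22a3, the sulphonylurea receptor Abcc8, the lysosomal peptide transporter Abcb9, the phospholipid floppase Abcb4, the P-glycoprotein gene Abcb1a and the Slco genes Slco1a1, Slco1a5, Slco1b2, Slco1c1, Slco5a1 and Slco6b1.

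The tissue label was set against nephron marker genes. Each of 25 proximal tubule genes measured was above the lowest array median in every group, and the mean of their log2 values ranged over the arrays from 11.45 to 11.59 in SBN/y with 2 kidneys, 11.31 to 11.46 in SBN/y with 1 kidney, 11.58 to 11.66 in SBH/y with 2 kidneys and 11.48 to 11.58 in SBH/y with 1 kidney. Of those 25 genes, 4 were called higher and 0 lower in SBH/y than in SBN/y with 2 kidneys, and 8 and 2 with 1 kidney. After uninephrectomy 0 of them were higher and 3 lower in each strain. Beside these and the other list counts, 11.8% of all genes were called higher and 9.69% lower in SBH/y with 2 kidneys. With 1 kidney the shares were 14.9% and 11.9%. After uninephrectomy they were 4.85% and 5.51% in SBH/y and 0.288% and 0.317% in SBN/y. Of 13 macrophage genes, 8 were higher and 2 lower in SBH/y with 2 kidneys, and of 14 genes of proximal tubule injury 8 were higher and 0 lower after uninephrectomy in SBH/y. For the injury list, 7 genes were higher in SBH/y than in SBN/y after uninephrectomy and 1 was lower. All 5 podocyte genes were lower after uninephrectomy in SBH/y. Of 8 thick ascending limb genes 5 were lower in SBH/y with 2 kidneys and 7 with 1 kidney, of 6 distal convoluted tubule genes 3 in both states, and of 9 collecting duct genes 4 and 6, with 0 higher in each list. With 1 kidney 10 of the macrophage genes were higher in SBH/y and 2 lower. Of 6 liver genes, Apoa1, Serpina1 and Ahsg lay below the lowest array median in all 4 groups, Fgb in 3, Ttr in 2 and Alb in 1. In bulk samples of this kind, fewer cells of a type and less RNA per cell cannot be told apart, and the part of these shifts in the results on the transporters was not tested.

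Clock genes set 2 arrays apart from their groups. Bmal1, a core clock activator, was at 4.95 in SBN/y 1-kidney replicate 6 against 6.79 to 7.28 in the other 6 arrays of that group, and at 7.52 in SBH/y 1-kidney replicate 2 against 4.41 to 5.20 in the other 6. The clock-output factor Dbp showed the mirror image, 9.03 against 6.24 to 6.87 and 6.58 against 8.24 to 9.23. Of 15 clock genes, 8 were higher and 4 lower after uninephrectomy in SBH/y. Counts of called members and of the pathway genes, and the members whose call changed, are therefore given also without both arrays, a choice made after the data were seen. The largest shift of a member on leaving them out was 0.107 log2 units, for Abcb1a. In SBH/y with 2 kidneys Bmal1 lay at 7.06 to 7.59. Within SBH/y it thus split by kidney state on every array but 1-kidney replicate 2. Leaving both arrays out completes that split and cannot separate clock phase from kidney state. The strains were also apart with 2 kidneys, where Bmal1 lay at 6.29 to 7.03 in SBN/y, below every SBH/y array. Npas2, another clock activator, lay at 6.62 to 7.67 in SBN/y and 7.72 to 8.11 in SBH/y, while Dbp overlapped. Of the 15 clock genes, 2 were called higher and 3 lower in SBH/y with 2 kidneys. The part of clock phase in the uninephrectomy effects of either strain and in the strain differences with 2 kidneys or 1 kidney was not tested, for members and listed genes alike.

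**Figure D1:**
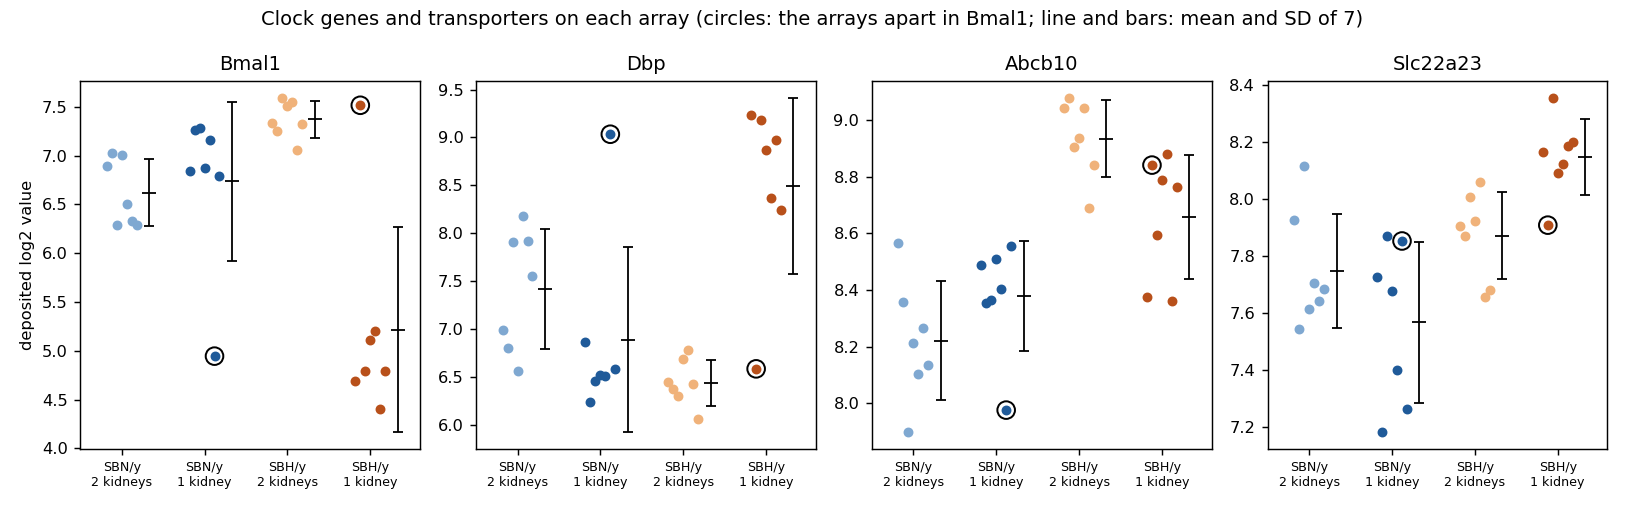
Deposited log2 values of the clock genes Bmal1 and Dbp and the transporters Abcb10 and Slc22a23 on each of the 28 arrays, one panel per gene with its own axis and one column per group. Points are arrays, lines and bars are the mean and SD of 7 arrays, and circles mark the arrays apart in Bmal1. SBN/y 1-kidney replicate 6 and SBH/y 1-kidney replicate 2 lie apart from their groups for Bmal1, at 4.95 and 7.52.

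With both kidneys in place, SBH/y differed from SBN/y in 21 of the 52 transporters, with 9 higher and 12 lower. That is 40.4% of the members, beside 21.5% of all genes called in this comparison (11.8% higher and 9.69% lower). The 7 and 7 arrays did not overlap for 13 members, beside 8.53% of all genes. After uninephrectomy the strains differed in 25 members, 13 higher and 12 lower, or 48.1% beside 26.8% of all genes (14.9% higher and 11.9% lower). There too 13 members had no overlap between the arrays, beside 11.8% of all genes. The median difference over the 52 was -0.06 with 2 kidneys and -0.04 with 1 kidney, beside -0.01 and 0.00 over all genes. At an unadjusted p below 0.05 limma gave 9 higher and 17 lower members with 2 kidneys and 16 higher and 13 lower with 1 kidney. The median size of the difference, without its sign, was 0.167 and 0.149 beside 0.0834 and 0.0861. Of the 15 dim members 3 were called with 2 kidneys and 2 with 1 kidney, and of the other 37 members 18 and 23. The shares over all genes given here were not matched for brightness.

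Without both clock-apart arrays 20 of these 21 members passed with 2 kidneys, all but Abcb4, and 21 of these 25 with 1 kidney, all but Abcb10, Slc22a21, Slc22a25 and Slco4a1. Both are 1-kidney arrays, so the differences with 2 kidneys stayed the same and only their estimated spread and adjusted p moved.

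The same direction was called in both kidney states for 17 of the 52 members, beside 14.2% of all genes. Abcb10, Abcb1a, Abcc2, Slc22a15, Slc22a2, Slc22a5, Slc47a1, Slco1a6 and Slco2a1 were higher in SBH/y in both. Abcc6, Abcg1, Abcg2, Slc22a12, Slc22a24, Slc22a25, Slc22a4 and Slco4a1 were lower in both. The comparisons share no arrays. Another 4 members passed the test with 2 kidneys alone (Abcb4, Abcc4, Slc22a3 and Slco1a3) and 8 with 1 kidney alone (Abcc9, Slc22a21, Slc22a23, Slc22a6, Slc22a7, Slco1b2, Slco2b1 and Slco3a1). Of these 12, only for Abcc4 and Slc22a7 did the test of the difference between the comparisons, the interaction, pass.

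**Figure D2:**
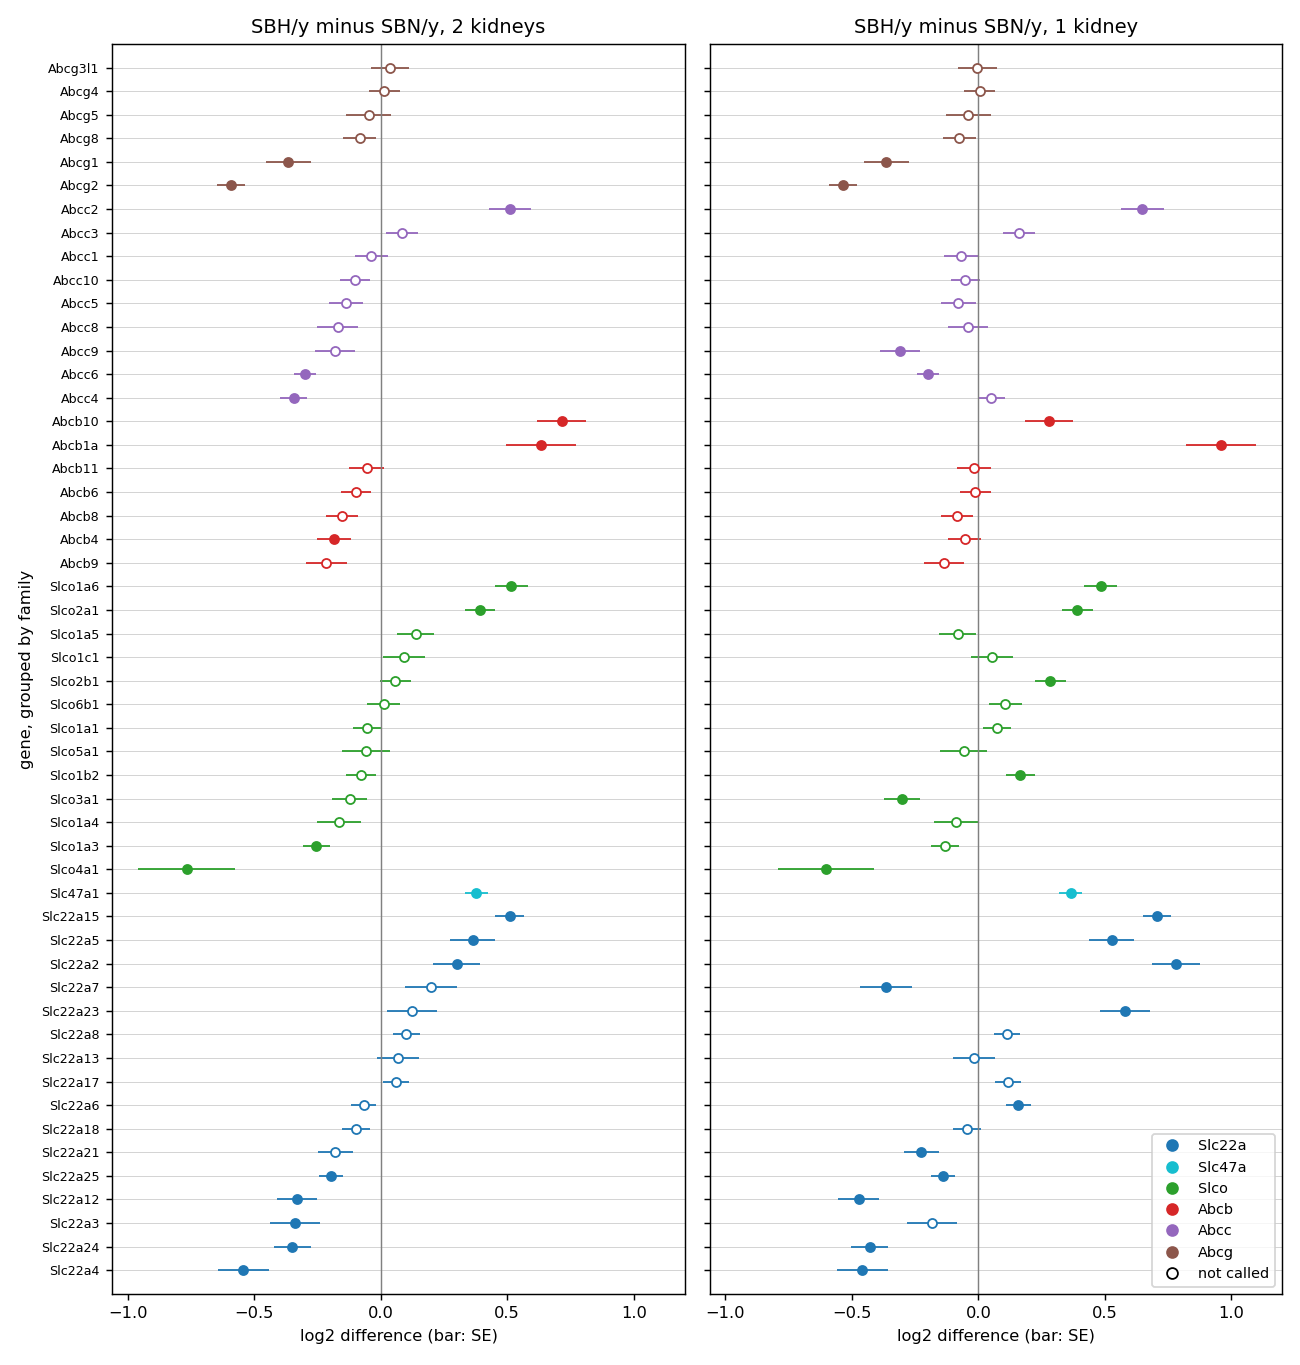
Difference in log2 value between SBH/y and SBN/y for each of the 52 transporters, with 2 kidneys on the left and 1 kidney on the right, coloured by family. Bars are standard errors from limma and filled points passed an adjusted p of 0.05, 21 on the left and 25 on the right.

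The basolateral organic cation carrier and its apical partner were both higher in SBH/y. Slc22a2 encodes OCT2, which takes up cations such as metformin and creatinine. Its arrays ran from 8.71 through a median of 9.04 to 9.33 in SBN/y and from 9.17 through 9.25 to 9.73 in SBH/y with 2 kidneys, and the groups overlapped. The difference was 0.30 ± 0.09 (SE; adjusted p = 0.0236). Without SBN/y 2-kidney replicate 6 or 7 or SBH/y 2-kidney replicate 4, the Slc22a2 call was lost, with differences of 0.24 to 0.27 and adjusted p of 0.0634 to 0.0763, and it was lost in a fit of only these groups (adjusted p = 0.0531). After uninephrectomy Slc22a2 ran from 8.93 through 9.19 to 9.48 in SBN/y and from 9.78 through 9.95 to 10.10 in SBH/y. All 7 SBH/y arrays lay above all 7 SBN/y arrays, with a difference of 0.78 ± 0.09 (adjusted p = 1.24e-07).

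Slc47a1, the gene of MATE1, ran from 10.81 through 10.88 to 11.05 in SBN/y with 2 kidneys and from 11.12 through 11.28 to 11.35 in SBH/y. With 1 kidney it ran from 10.70 through 10.79 to 10.94 and from 11.07 through 11.16 to 11.28. The strains did not overlap in either state, with differences of 0.38 ± 0.05 (adjusted p = 1.77e-07) and 0.36 ± 0.05 (adjusted p = 2.64e-07). Slc22a3, the gene of OCT3, was dim, at 3.31 to 4.10 in SBN/y and 3.14 to 3.49 in SBH/y with 2 kidneys. Its difference was -0.34 ± 0.10 (adjusted p = 0.015), and with 1 kidney it was -0.18 ± 0.10 (adjusted p = 0.218). Slc22a2 and Slc22a3 are neighbours in the RefSeq gene table with 0 protein-coding genes between them.

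The carnitine carrier gene Slc22a5 was higher in SBH/y and the ergothioneine carrier gene Slc22a4 lower, and the RefSeq gene table places Slc22a21 between them. Slc22a5 encodes OCTN2, which recovers carnitine from the filtrate. It ran from 9.36 through 9.66 to 9.84 in SBN/y and from 9.71 through 10.003 to 10.19 in SBH/y with 2 kidneys, a difference of 0.36 ± 0.09 (adjusted p = 0.00352). With 1 kidney the Slc22a5 arrays no longer overlapped, 9.17 to 9.71 against 9.81 to 10.26, and the difference was 0.53 ± 0.09 (adjusted p = 3.29e-05).

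Slc22a4 encodes OCTN1, the ergothioneine carrier, and was lower in SBH/y. It ran from 6.61 through 6.90 to 7.13 in SBN/y and from 6.01 through 6.42 to 6.56 in SBH/y with 2 kidneys, and from 6.60 through 6.72 to 6.96 and 5.88 through 6.41 to 6.55 with 1 kidney. No SBH/y array reached an SBN/y array in either state, with differences of -0.54 ± 0.10 (adjusted p = 0.000159) and -0.46 ± 0.10 (adjusted p = 0.000907). Slc22a21, a carnitine carrier gene with 0 protein-coding genes between it and either neighbour, differed by -0.18 ± 0.07 (adjusted p = 0.0702) and -0.23 ± 0.07 (adjusted p = 0.0167). The Slc22a21 call was lost when both clock-apart arrays were left out (-0.21, adjusted p = 0.0546).

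Among the organic anion carriers, the major uptake transporters OAT1 and OAT3 differed little or by a value that depended on the probe set. Slc22a6, the gene of OAT1, ran from 10.40 through 10.51 to 10.60 in SBN/y and from 10.35 through 10.43 to 10.62 in SBH/y with 2 kidneys, and the difference of -0.07 did not pass (95% interval -0.17 to 0.04). With 1 kidney Slc22a6 ran from 10.43 through 10.62 to 10.73 and from 10.63 through 10.79 to 10.93, and was 0.16 ± 0.05 higher in SBH/y (adjusted p = 0.0208). That call was lost without SBN/y 1-kidney replicate 2 or SBH/y 1-kidney replicate 3 (0.13 in both, adjusted p of 0.0606 to 0.0686).

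Slc22a8, the gene of OAT3, has a pair of probe sets. On the brighter one the arrays ran from 11.36 to 11.66 in SBN/y and from 11.53 to 11.70 in SBH/y with 2 kidneys, and from 11.23 to 11.55 and 11.39 to 11.66 with 1 kidney. The Slc22a8 differences were 0.10 (95% interval -0.01 to 0.21, adjusted p = 0.197) and 0.11 (95% interval 0.01 to 0.22, adjusted p = 0.139). On the other Slc22a8 probe set all 14 SBH/y arrays, at 6.82 to 7.48, lay below all 14 SBN/y arrays, at 7.65 to 8.65, with differences of -1.05 ± 0.10 (adjusted p = 1.08e-09) and -0.995 ± 0.10 (adjusted p = 2.8e-09). Averaging both probe sets gave -0.47 and -0.44 for Slc22a8. No single direction can therefore be given for this gene, and a difference in RNA and a difference in the sequence under the probes cannot be told apart here.

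Slc22a7, the gene of the organic anion transporter OAT2, overlapped between the strains with 2 kidneys, where its difference of 0.20 ± 0.10 did not pass (adjusted p = 0.195). With 1 kidney it was lower in SBH/y by -0.36 ± 0.10 (adjusted p = 0.00885), a change taken up below with uninephrectomy.

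Of the other Slc22a genes, Slc22a12, Slc22a24 and Slc22a25 were lower in SBH/y in both states and Slc22a15 was higher in both. Slc22a12 encodes URAT1, which reabsorbs urate. It ran from 9.17 through 9.49 to 9.77 in SBN/y and from 8.93 through 9.12 to 9.28 in SBH/y with 2 kidneys, and from 9.30 through 9.58 to 9.77 and 8.88 through 9.07 to 9.30 with 1 kidney. SBH/y lay mostly below SBN/y with a narrow overlap, and the differences were -0.33 ± 0.08 (adjusted p = 0.00325) and -0.47 ± 0.08 (adjusted p = 3.47e-05). Slc22a24 ran from 9.89 to 10.21 against 9.53 to 9.93 with 2 kidneys, and from 10.10 to 10.26 against 9.34 to 9.90 with 1 kidney. The Slc22a24 differences were -0.35 ± 0.07 (adjusted p = 0.000659) and -0.43 ± 0.07 (adjusted p = 3.46e-05).

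Slc22a25 was lower by smaller amounts, -0.20 ± 0.05 (adjusted p = 0.00235) and -0.14 ± 0.05 (adjusted p = 0.0279). The second Slc22a25 call was lost without SBN/y 1-kidney replicate 1 or 5 or SBH/y 1-kidney replicate 2 or 5 (-0.13 to -0.12, adjusted p of 0.053 to 0.0745), and without both clock-apart arrays (-0.13, adjusted p = 0.0791). The gene lies beside Slc22a8 and Slc22a6 with 0 protein-coding genes between neighbours. Slc22a15 went the other way, from 6.59 to 6.77 in SBN/y to 7.07 to 7.31 in SBH/y with 2 kidneys, and from 6.57 to 6.84 to 7.15 to 7.58 with 1 kidney. The strains did not overlap for Slc22a15 in either state, and the differences were 0.51 ± 0.06 (adjusted p = 2.85e-08) and 0.71 ± 0.06 (adjusted p = 2.72e-11).

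Slc22a23, an orphan carrier, differed by 0.12 ± 0.10 with 2 kidneys (adjusted p = 0.448) and was higher by 0.58 ± 0.10 with 1 kidney (adjusted p = 4.4e-05), where the SBN/y arrays ran from 7.18 to 7.87 and the SBH/y arrays from 7.91 to 8.35. A further probe set of Slc22a23 was also higher with 1 kidney, by 0.32 ± 0.10 (adjusted p = 0.0218). Slc22a13, the gene of the brush border carrier OAT10, Slc22a17, the gene of a lipocalin-2 receptor, and Slc22a18 passed in no comparison, with strain differences between -0.10 and 0.12.

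Of the 13 Slco genes, 2 were higher in SBH/y in both states. Slco1a6, a kidney organic anion transporter of the rat, ran from 9.89 through 10.04 to 10.22 in SBN/y and from 10.42 through 10.51 to 10.82 in SBH/y with 2 kidneys. With 1 kidney it ran from 9.80 through 10.02 to 10.24 and from 10.24 through 10.51 to 10.64. The strains did not overlap, and the Slco1a6 differences were 0.52 ± 0.07 (adjusted p = 5.83e-07) and 0.48 ± 0.07 (adjusted p = 1.47e-06).

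Slco2a1 encodes the prostaglandin transporter, which takes up prostaglandin E for breakdown. It ran from 8.12 to 8.53 in SBN/y and from 8.70 to 8.88 in SBH/y with 2 kidneys, and from 8.07 to 8.37 and 8.53 to 8.72 with 1 kidney. The strains again did not overlap, with a difference of 0.39 ± 0.06 in both states (adjusted p = 1.16e-05 and 9.32e-06), and the further Slco2a1 probe set was higher by 0.22 ± 0.06 and 0.18 ± 0.06.

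Slco4a1, a carrier of thyroid hormone and prostaglandins, was the lowest relative to SBN/y of all 52 members in both states. It ran from 7.13 through 7.52 to 7.70 in SBN/y and from 5.88 through 6.79 to 7.03 in SBH/y with 2 kidneys, without overlap. With 1 kidney the arrays spread widely and overlapped, from 6.07 through 7.34 to 7.68 and from 6.16 through 6.35 to 6.91. The Slco4a1 differences were -0.77 ± 0.19 (adjusted p = 0.004) and -0.60 ± 0.19 (adjusted p = 0.021). The second was lost without SBN/y 1-kidney replicate 1, 2 or 6 (-0.54 to -0.50, adjusted p of 0.0512 to 0.0651), and without both clock-apart arrays (-0.57, adjusted p = 0.0514). A further Slco4a1 probe set gave -0.52 ± 0.12 (adjusted p = 0.00166) and -0.26 ± 0.12 (adjusted p = 0.125).

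Slco2b1, which carries steroid sulphates, passed with 1 kidney alone, where it ran from 6.60 through 6.86 to 6.97 in SBN/y and from 6.90 through 7.13 to 7.25 in SBH/y. The Slco2b1 difference was 0.29 ± 0.06 (adjusted p = 0.000825), and on a further probe set it was 0.09 ± 0.06 (adjusted p = 0.346). Slco3a1 was lower with 1 kidney by -0.30 ± 0.07 (adjusted p = 0.00145), while its further probe set gave -0.03 ± 0.05. Slco1a3, a kidney organic anion transporter, was lower with 2 kidneys by -0.25 ± 0.05 (adjusted p = 0.000887), with no overlap between the arrays. The dim Slco1b2, known as a liver carrier, was called higher with 1 kidney on one probe set (0.17 ± 0.06, adjusted p = 0.0414, lost in 10 of the 28 fits without 1 array) and lower on another (-0.16 ± 0.04, adjusted p = 0.00632), so no direction is given. Slco1a1, a carrier known from male kidney and liver, was dim in these female rats at 2.52 to 2.98 over all 28 arrays, with strain differences of -0.05 and 0.07 that did not pass. Slco1a4, Slco1a5, Slco1c1, Slco5a1 and Slco6b1 passed in no comparison.

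The Slco1c1, Slco1b2, Slco1a4, Slco1a1, Slco1a3, Slco1a6 and Slco1a5 genes follow each other in the RefSeq gene table with 0 protein-coding genes between neighbours. Within that cluster Slco1a6 was higher and Slco1a3 lower in SBH/y with 2 kidneys.

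Among the ABC exporters, Abcb1a, Abcb10 and Abcc2 were higher in SBH/y and Abcg2, Abcg1 and Abcc6 lower, each in both kidney states. Abcg2 encodes BCRP, an apical exporter of urate and drugs. It ran from 9.10 through 9.17 to 9.31 in SBN/y and from 8.46 through 8.59 to 8.69 in SBH/y with 2 kidneys, and from 8.71 through 8.97 to 9.09 and 8.28 through 8.36 to 8.61 with 1 kidney. No SBH/y array reached an SBN/y array, and the Abcg2 differences were -0.59 ± 0.06 (adjusted p = 1.18e-09) and -0.54 ± 0.06 (adjusted p = 7.59e-09).

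Abcg1, which moves cholesterol to HDL, ran from 7.41 through 7.59 to 7.74 in SBN/y and from 6.91 through 7.23 to 7.39 in SBH/y with 2 kidneys, without overlap. With 1 kidney the arrays overlapped, from 7.41 to 8.05 and from 7.06 to 7.61. The Abcg1 differences were -0.37 ± 0.09 (adjusted p = 0.00331) and -0.36 ± 0.09 (adjusted p = 0.00271). Neither of 2 further Abcg1 probe sets passed, at -0.21 and -0.12 with 2 kidneys and -0.16 and 0.02 with 1 kidney, and the mean over the probe sets lost the call with 1 kidney (-0.17, adjusted p = 0.0747). Abcg3l1, Abcg4, Abcg5 and Abcg8 passed in no comparison.

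Abcc2 encodes MRP2, an apical exporter of glutathione and glucuronide conjugates. It ran from 5.48 through 5.70 to 5.98 in SBN/y and from 6.01 through 6.22 to 6.37 in SBH/y with 2 kidneys, and from 5.36 through 5.80 to 6.03 and 6.16 through 6.41 to 6.62 with 1 kidney. The strains did not overlap, and Abcc2 was higher by 0.51 ± 0.08 (adjusted p = 2.66e-05) and 0.65 ± 0.08 (adjusted p = 4.08e-07). The basolateral MRP3 gene Abcc3 differed by 0.08 (95% interval -0.05 to 0.21) and 0.16 (95% interval 0.03 to 0.29, adjusted p = 0.0662). Abcc3 arrays with 1 kidney ran from 6.50 to 6.82 in SBN/y and from 6.59 to 6.996 in SBH/y and overlapped. The MRP1 gene Abcc1 ran from 6.91 to 7.49 over all arrays and differed by -0.04 (95% interval -0.17 to 0.10) and -0.07 (95% interval -0.21 to 0.07).

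Abcc6, a transporter of liver and kidney whose loss causes tissue calcification, was lower in both states without overlap, by -0.30 ± 0.04 (adjusted p = 3.41e-06) and -0.20 ± 0.04 (adjusted p = 0.000712). Abcc9 encodes the potassium channel subunit SUR2. It ran from 7.35 to 7.75 in SBN/y and from 6.95 to 7.48 in SBH/y with 1 kidney, and was lower by -0.31 ± 0.08 (adjusted p = 0.00359). With 2 kidneys the Abcc9 difference of -0.18 ± 0.08 did not pass (adjusted p = 0.119). Of 2 further Abcc9 probe sets, 1 was lower with 1 kidney (-0.23 ± 0.07, adjusted p = 0.0206) and the other gave -0.03 ± 0.05. Of 7 endothelial genes 6 were lower and 0 higher in SBH/y with 1 kidney, and of 8 smooth muscle and pericyte genes 1 was lower and 1 higher. The part of these cell types in the Abcc9 difference was not tested. Abcc5, Abcc8 and Abcc10 passed in no comparison.

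Abcb10, a transporter of the inner mitochondrial membrane tied to haem synthesis, ran from 7.90 through 8.21 to 8.57 in SBN/y and from 8.69 through 8.94 to 9.08 in SBH/y with 2 kidneys. The Abcb10 arrays did not overlap and the difference was 0.72 ± 0.10 (adjusted p = 1.08e-06). With 1 kidney they ran from 7.98 to 8.56 and from 8.36 to 8.88, and the difference was 0.28 ± 0.10 (adjusted p = 0.0349). A further Abcb10 probe set gave 0.67 ± 0.08 and 0.34 ± 0.08, both called. The difference with 1 kidney was lost on the brighter Abcb10 probe set in 7 of the 28 fits that left out 1 array, those without SBN/y 1-kidney replicate 2, 3 or 6 or SBH/y 1-kidney replicate 2, 4, 5 or 7 (0.21 to 0.28, adjusted p of 0.0531 to 0.108). Without both clock-apart arrays it was 0.18 (adjusted p = 0.2). Abcb6 and Abcb8, also of mitochondria, and Abcb9 and Abcb11 passed in no comparison.

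Abcb4, which exports phosphatidylcholine, was dim and lay at 5.19 to 5.55 in SBN/y and 5.08 to 5.39 in SBH/y with 2 kidneys. The Abcb4 difference of -0.18 ± 0.07 was just past the threshold (adjusted p = 0.0491) and was lost in 19 of the 28 fits that left out 1 array, with adjusted p up to 0.12. It was also lost without both clock-apart arrays (adjusted p = 0.0526), with trended and robust variance (adjusted p = 0.0636) and in a fit of only these groups (adjusted p = 0.0745).

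P-glycoprotein, the broad-range drug exporter, is encoded in the rat by Abcb1a and Abcb1b, and 3 probe sets bear on it. The Abcb1a probe set of highest mean was dim and ran from 4.23 through 4.57 to 5.11 in SBN/y and from 4.92 through 5.41 to 5.60 in SBH/y with 2 kidneys. With 1 kidney it ran from 4.22 through 4.69 to 5.06 and from 5.17 through 5.68 to 5.93, without overlap. The Abcb1a differences were 0.63 ± 0.14 (adjusted p = 0.00123) and 0.96 ± 0.14 (adjusted p = 3.44e-06). A further Abcb1a probe set was higher by 0.99 ± 0.13 (adjusted p = 1e-06) and 1.39 ± 0.13 (adjusted p = 1.17e-09).

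The remaining probe set carries both symbols, Abcb1a and Abcb1b, and was outside the count of members; its values were looked at after the others were seen. It lay between 4.37 and 5.08 on all 14 SBN/y arrays and between 7.72 and 8.74 on all 14 SBH/y arrays. The difference on the probe set of Abcb1a and Abcb1b was 3.57 ± 0.12 with 2 kidneys (adjusted p = 1.28e-20) and 3.70 ± 0.12 with 1 kidney (adjusted p = 4.74e-21). The probe sets naming Abcb1a alone gave smaller differences, of 0.63 to 1.39. The shares of Abcb1a and Abcb1b in the probe set that carries both symbols cannot be told apart, and no probe set naming Abcb1b alone was used. The SBN/y values lay below the lowest array median, so these are differences of the deposited values and no fold of RNA is given. A strain difference in the sequence under these probes was not tested.

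**Figure D3:**
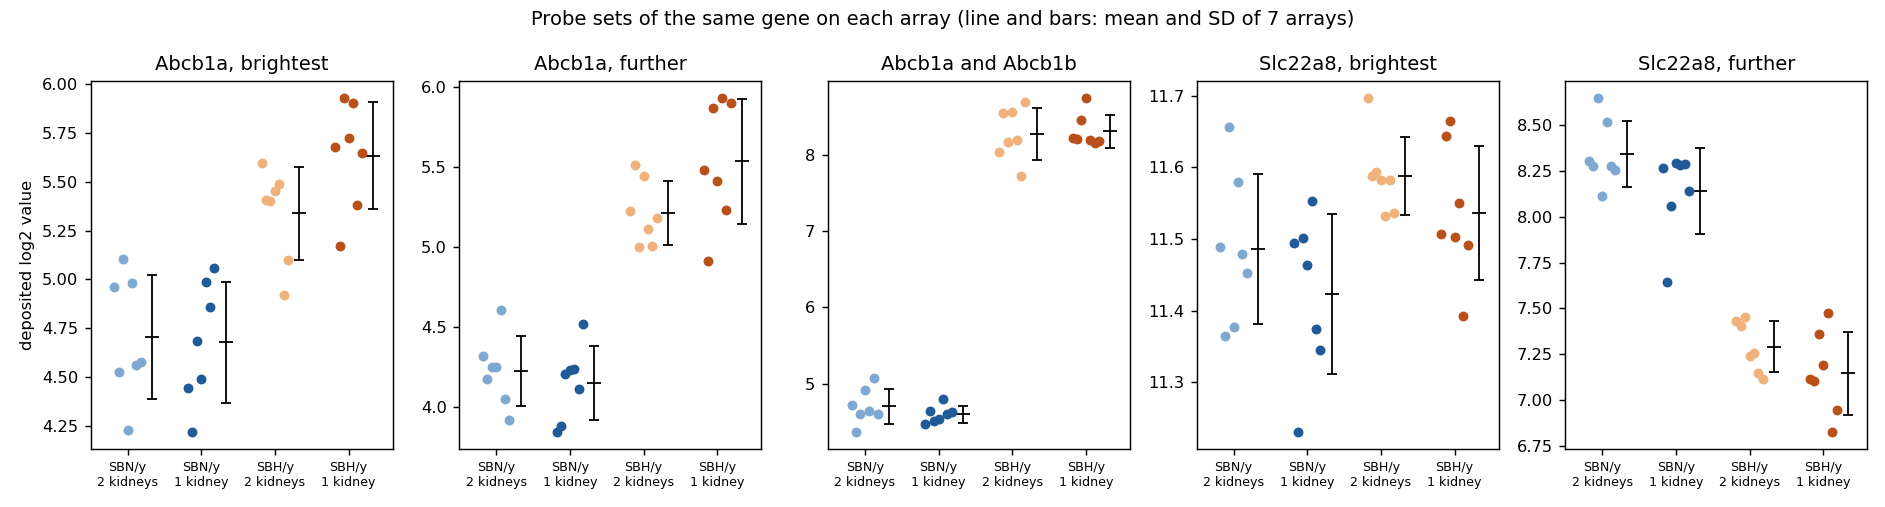
Log2 values per array for probe sets of the same gene, one panel per probe set with its own axis and one column per group. Points are arrays, and lines and bars are the mean and SD of 7 arrays. The probe set of Abcb1a and Abcb1b separates the strains by more than 3 log2 units, and the probe sets of Slc22a8 differ in direction.

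Over the 17 further probe sets of members, 5 passed in the same direction as the brightest probe set of their gene and 0 in the opposite direction with 2 kidneys. There the brightest one passed alone in 2 cases and the further one alone in 1 (Slc22a8). With 1 kidney 5 agreed, 1 was opposite (Slco1b2), in 6 cases the brightest one passed alone, and in 1 the further one (Slc22a8).

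**Figure D4:**
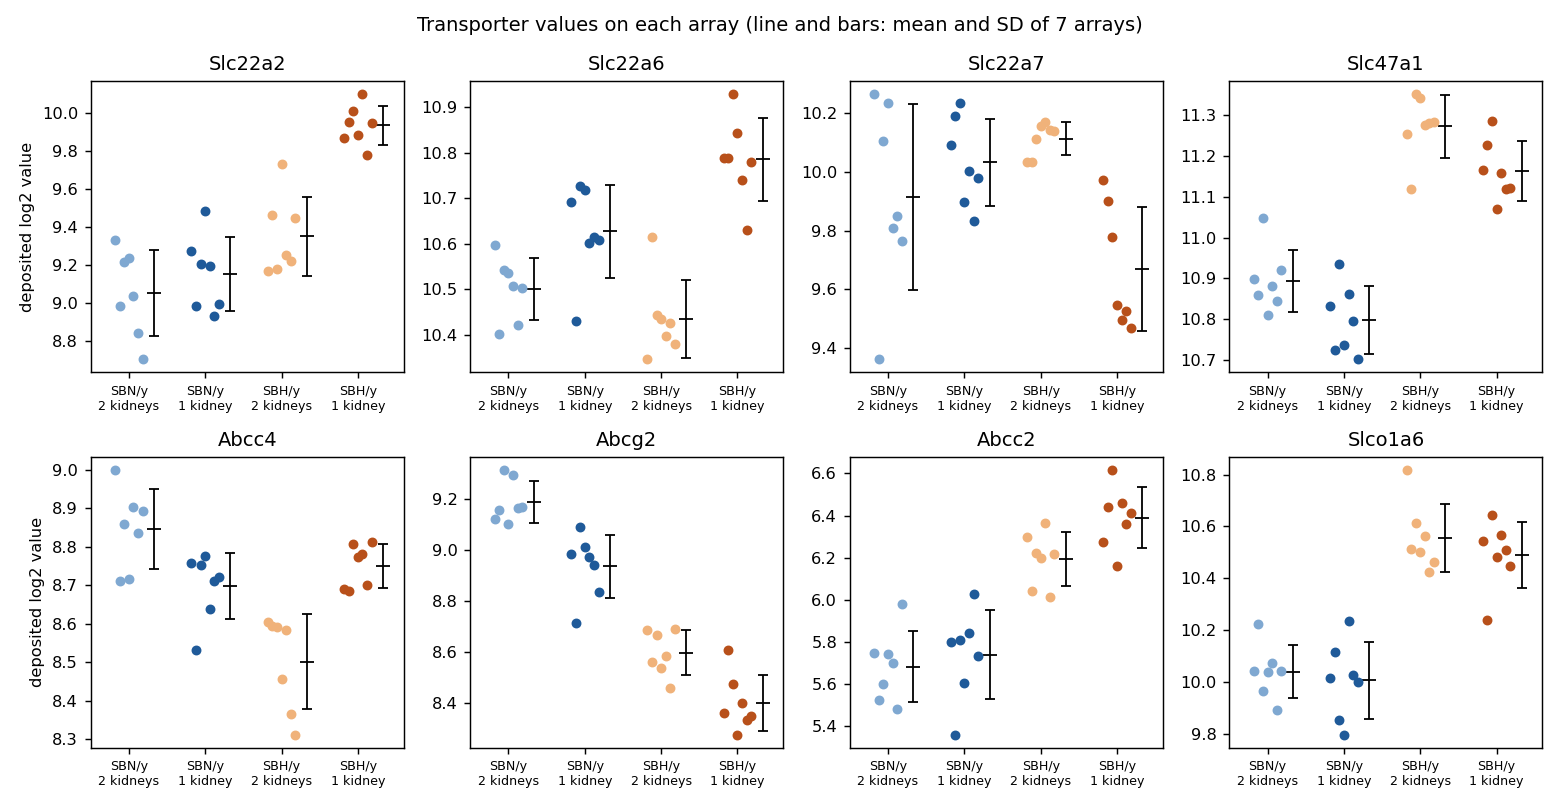
Log2 values of 8 transporters on each of the 28 arrays, one panel per gene with its own axis and one column per group. Points are arrays, and lines and bars are the mean and SD of 7 arrays. Slc22a2 was above every SBN/y array in all SBH/y arrays with 1 kidney, at 9.78 to 10.10 against 8.93 to 9.48, and Abcg2 was lower in SBH/y in both states.

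Few transporters passed the test for uninephrectomy in SBN/y. Of the 52, 1 was lower, beside 0.317% of all genes, and 0 were higher, beside 0.288% (0.605% in either direction); at an unadjusted p below 0.05 limma gave 3 higher and 7 lower. The 1 was Abcg2, which fell from a median of 9.17 (9.10 to 9.31) to 8.97 (8.71 to 9.09), with no overlap (1 member, beside 0.556% of all genes). The Abcg2 difference was -0.25 ± 0.06 (adjusted p = 0.0305). It was lost without SBN/y 2-kidney replicate 3 or 5 or SBN/y 1-kidney replicate 2, 5 or 7 (-0.26 to -0.22, adjusted p of 0.0516 to 0.0875) and when the fit held only both SBN/y groups (-0.25, adjusted p = 0.0896). Without SBN/y 2-kidney replicate 4, Slco2a1 passed too, at -0.24 (adjusted p = 0.0452), against -0.19 ± 0.06 (adjusted p = 0.2) with all arrays. The other members lay between -0.39 for Slco4a1 (95% interval -0.78 to 0.00) and 0.21 for Abcg1 (95% interval 0.02 to 0.39).

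In SBH/y, 8 transporters were called after uninephrectomy, 5 higher and 3 lower. That is 15.4% of the members beside 10.4% of all genes (4.85% higher and 5.51% lower). At an unadjusted p below 0.05 limma gave 12 higher and 7 lower. The arrays of 4 members did not overlap, beside 2.68% of all genes. Higher after the operation were Slc22a2, Slc22a6, Abcc4, Abcb4 and Slc22a15, and lower were Slc22a7, Abcg2 and Slco2a1. The median over the 52 was 0.03 in SBH/y and -0.01 in SBN/y, beside 0.01 and -0.00 over all genes. The median size of the change, without its sign, was 0.104 in SBH/y and 0.0843 in SBN/y. Over all genes it was 0.0707 and 0.0464. The counts of calls in the strains therefore differ more than the sizes of the changes. The number of members called in SBH/y ranged from 4 to 12 when 1 array was left out, with 4 without SBH/y 2-kidney replicate 3 and 5 without SBH/y 1-kidney replicate 6 or 7. Without both clock-apart arrays it was 12, with all 8 kept and Abcb10, Abcg1, Slc22a23 and Slco1a3 added. The uninephrectomy comparisons share no arrays.

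Among the uptake carriers, Slc22a2 and Slc22a6 were higher in the remaining SBH/y kidney and Slc22a7 was lower. Slc22a2 went from a median of 9.25 (9.17 to 9.73) to 9.95 (9.78 to 10.10), without overlap, a difference of 0.58 ± 0.09 (adjusted p = 0.000123). In SBN/y Slc22a2 differed by 0.10 (95% interval -0.09 to 0.29, adjusted p = 0.872). The test of the difference between these effects, the interaction, gave 0.48 ± 0.13 for Slc22a2 and did not pass (adjusted p = 0.0622). It passed without SBN/y 2-kidney replicate 7, SBN/y 1-kidney replicate 4 or SBH/y 2-kidney replicate 4 (0.54 in each, adjusted p of 0.0248 to 0.0307), and under some of the other settings given in the closing section.

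Slc22a6 went from a median of 10.43 (10.35 to 10.62) to 10.79 (10.63 to 10.93) in SBH/y, with the highest 2-kidney array just below the lowest 1-kidney array. The Slc22a6 difference was 0.35 ± 0.05 (adjusted p = 2.66e-05). In SBN/y it was 0.13 (95% interval 0.02 to 0.23, adjusted p = 0.4), and the interaction of 0.22 ± 0.07 did not pass (adjusted p = 0.119). Slc22a8, the neighbour of Slc22a6, showed -0.05 (95% interval -0.16 to 0.06) in SBH/y and -0.06 (95% interval -0.17 to 0.04) in SBN/y.

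Slc22a7 went the other way in SBH/y, from a median of 10.14 (10.03 to 10.17) to 9.55 (9.47 to 9.97), without overlap, a difference of -0.44 ± 0.10 (adjusted p = 0.00514). In SBN/y its arrays went from 9.85 (9.36 to 10.26) to 10.002 (9.83 to 10.24), a difference of 0.12 (95% interval -0.09 to 0.33). The Slc22a7 interaction was -0.56 ± 0.14 and passed (adjusted p = 0.0427). That call was lost in 18 of the 28 fits that left out 1 array, with values of -0.58 to -0.53 and adjusted p of 0.053 to 0.0758. In those 18 fits the array left out was SBN/y 2-kidney replicate 5, 6 or 7, SBN/y 1-kidney replicate 1, 2, 3, 5 or 7, any of the SBH/y 2-kidney arrays but replicate 6, or SBH/y 1-kidney replicate 4, 5, 6 or 7. Median centring of the arrays gave an adjusted p of 0.0516, and trended and robust variance 0.0519.

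Among the exporters, Abcc4 and Abcg2 moved apart. Abcc4 encodes MRP4, an apical exporter of anions and cyclic nucleotides in the proximal tubule. With 2 kidneys it ran from 8.71 through 8.86 to 8.999 in SBN/y and from 8.31 through 8.58 to 8.60 in SBH/y, without overlap, a strain difference of -0.34 ± 0.05 (adjusted p = 1.13e-05). With 1 kidney Abcc4 ran from 8.53 through 8.72 to 8.78 in SBN/y and from 8.69 through 8.77 to 8.81 in SBH/y, and the strain difference was 0.05 (95% interval -0.06 to 0.16).

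The uninephrectomy effect on Abcc4 was 0.25 ± 0.05 in SBH/y (adjusted p = 0.0026, no overlap) and -0.15 (95% interval -0.26 to -0.04, adjusted p = 0.323) in SBN/y. The Abcc4 interaction of 0.40 ± 0.08 passed (adjusted p = 0.00547), and it remained called in each of the 28 fits that left out 1 array. Abcg2 fell in SBH/y by 0.20 on the log2 scale (± 0.06, adjusted p = 0.0242), from a median of 8.59 (8.46 to 8.69) to 8.36 (8.28 to 8.61), beside the fall in SBN/y. Its interaction was 0.06 (95% interval -0.11 to 0.22), so a difference between the strains in the Abcg2 effect was not detected. The Abcg2 call in SBH/y was lost without SBH/y 2-kidney replicate 1, 3 or 7 or SBH/y 1-kidney replicate 4, 6 or 7 (-0.19 to -0.18, adjusted p of 0.0505 to 0.0613).

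The remaining calls in SBH/y were smaller. Slc22a15 was higher by 0.20 ± 0.06 (adjusted p = 0.0215), with arrays of 7.07 to 7.31 and 7.15 to 7.58 that overlapped. It was lost without SBH/y 2-kidney replicate 3 or SBH/y 1-kidney replicate 3 or 5 (0.17 to 0.19, adjusted p of 0.053 to 0.0601) and in a fit of only both SBH/y groups (adjusted p = 0.0638). Abcb4 was higher by 0.21 ± 0.07 (adjusted p = 0.0374), lost in 9 of the 28 fits without 1 array, all of them without an SBH/y array (0.19 to 0.22, adjusted p of 0.0542 to 0.0942). Slco2a1 was lower by -0.19 ± 0.06 (adjusted p = 0.0424), the size it had in SBN/y, and was lost in 10 of the 28 such fits, again all without an SBH/y array (-0.20 to -0.18, adjusted p of 0.0565 to 0.0857). The Slco2a1 call was also lost under median centring (-0.18, adjusted p = 0.0602), with array weights (-0.18, adjusted p = 0.0539) and with the mean over its probe sets (-0.15, adjusted p = 0.0551).

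Abcb10, Slc22a23, Abcg1 and Slco1a3 gained a call in SBH/y without both clock-apart arrays, and Abcb10 and Slc22a23 gained one in the interaction as well. Abcb10 was at 7.98 in SBN/y 1-kidney replicate 6, the lowest of its group, and Slc22a23 was at 7.91 in SBH/y 1-kidney replicate 2, the lowest of its group. With all arrays the Abcb10 effect in SBH/y was -0.28 ± 0.10 (adjusted p = 0.0716) and its interaction -0.44 ± 0.14 (adjusted p = 0.111). Without both arrays the Abcb10 effect was -0.31 (adjusted p = 0.0271) and its interaction -0.53 (adjusted p = 0.0152). For Slc22a23 the effect went from 0.28 ± 0.10 (adjusted p = 0.0878) to 0.32 (adjusted p = 0.0399) and the interaction from 0.46 ± 0.14 (adjusted p = 0.111) to 0.54 (adjusted p = 0.0266). The further Slc22a23 probe set gave -0.06 ± 0.10 in SBH/y. Abcg1 went to 0.27 (adjusted p = 0.0461) and Slco1a3 to 0.17 (adjusted p = 0.0403).

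A further Slco1a3 probe set was higher in SBH/y after uninephrectomy (0.28 ± 0.07, adjusted p = 0.00581) and a further Abcc9 probe set lower (-0.26 ± 0.07, adjusted p = 0.0267), while the brightest ones gave 0.15 ± 0.05 (adjusted p = 0.095) and -0.14 ± 0.08 (adjusted p = 0.327). The other members of the panel of kidney transporters that did not pass in SBH/y were Slc22a4 (-0.04), Slc22a5 (-0.01), Slc22a12 (-0.05), Slc47a1 (-0.11), Slco1a1 (0.03), Slco1a6 (-0.07), Slco2b1 (0.06), Abcb1a (0.30, adjusted p = 0.214), Abcc1 (0.10), Abcc2 (0.19, adjusted p = 0.166), Abcc3 (0.09) and Abcg1 (0.21, adjusted p = 0.164).

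The test of the interaction passed for 2 members, Abcc4 and Slc22a7, or 3.85% beside 2.06% of all genes (0.964% higher and 1.1% lower). For the other 50 it did not pass, which does not show that the effects were alike.

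**Figure D5:**
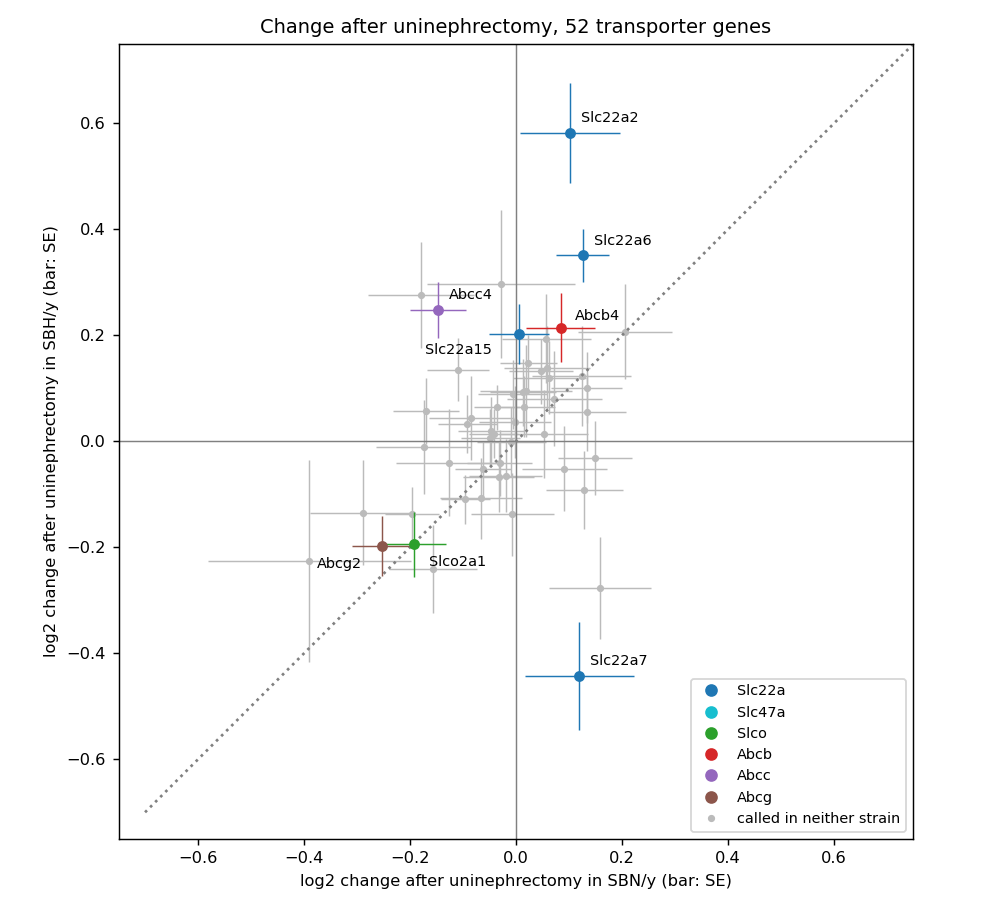
Uninephrectomy effect in log2 units in SBN/y (horizontal axis) and SBH/y (vertical axis) for the 52 transporters, with standard errors as bars and a dotted line of equal effects. Members called in a strain are named and coloured by family, and the others are grey. Slc22a2 at 0.10 and 0.58 and Slc22a7 at 0.12 and -0.44 lie farthest from the diagonal, and Abcg2 at -0.25 and -0.20 lies close to it.

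Carriers that work with these transporters were taken from a list of 25 measured genes. With 2 kidneys 7 were higher and 4 lower in SBH/y, beside 11.8% and 9.69% of all genes. With 1 kidney 10 were higher and 5 lower, beside 14.9% and 11.9%. Without both clock-apart arrays the list counts were 7 and 3 with 2 kidneys and 9 and 6 with 1 kidney, where Slc16a1 went from -0.27 (adjusted p = 0.574) to -0.80 (adjusted p = 6.01e-05). With 2 kidneys and all arrays, Slc16a1 was higher in SBH/y by 1.52 ± 0.27 (adjusted p = 9.95e-05). The apical bile acid carrier Slc10a2 was higher by 1.53 ± 0.12 (adjusted p = 1.06e-11) and 1.69 ± 0.12 (adjusted p = 1.05e-12), on values below the lowest array median in all 4 groups. The nucleoside carrier Slc28a2 was higher by 0.58 ± 0.08 (adjusted p = 6.34e-07) and the lactate carrier Slc5a12 by 0.92 ± 0.14 (adjusted p = 7.62e-06) with 2 kidneys. The basolateral organic solute subunit Slc51a was lower by -0.31 ± 0.09 and -1.01 ± 0.09, and the nucleoside carrier Slc29a1 by -0.29 ± 0.07 and -0.71 ± 0.07.

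After uninephrectomy 0 of the 25 passed in SBN/y, beside 0.605% of all genes. In SBH/y 0 were higher and 8 lower, beside 4.85% and 5.51% of all genes. The largest falls were those of the monocarboxylate carrier Slc16a1 (-1.68 ± 0.27, adjusted p = 0.000133), Slc51a (-0.87 ± 0.09, adjusted p = 3.49e-07), Slc5a12 (-0.49 ± 0.14, adjusted p = 0.0241) and Slc29a1 (-0.46 ± 0.07, adjusted p = 4.48e-05). For Slc51a, Slc16a1 and Slc29a1 the interaction passed as well. Without both clock-apart arrays the count of 8 stood and the interaction passed for 4 genes in place of 3, with Slc17a3 added (-0.62, adjusted p = 0.00258). Slc13a3, which brings in the dicarboxylates that organic anion carriers exchange, differed by 0.12 ± 0.05 in SBH/y (adjusted p = 0.151).

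Of 15 measured factors known to regulate such transporters, 1 was higher and 2 lower in SBH/y with 2 kidneys, and 2 were higher and 2 lower with 1 kidney. Over all genes 21.5% and 26.8% were called in these comparisons, and the counts of the list lay near those shares. The bile acid receptor Nr1h4 was higher by 0.27 ± 0.05 (adjusted p = 0.000527) and 0.36 ± 0.05 (adjusted p = 5.55e-06). The aryl hydrocarbon receptor Ahr was lower by -0.42 ± 0.09 (adjusted p = 0.00129) and -0.43 ± 0.09 (adjusted p = 0.00065), and its mean lay below the lowest array median in 2 of the 4 groups. After uninephrectomy 0 of the 15 passed in SBN/y and 1 in SBH/y, the xenobiotic receptor Nr1i2, at -0.18 ± 0.06 (adjusted p = 0.0417). Hnf4a, a proximal tubule factor, passed in none of the comparisons, at -0.06 and 0.04 between the strains. When both clock-apart arrays were left out, Nr1i3 was no longer called between the strains with 1 kidney (adjusted p = 0.0678), and Hnf4a (0.14, adjusted p = 0.0239) and Nr1h2 (-0.21, adjusted p = 0.018) passed after uninephrectomy in SBH/y.

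Enzymes of conjugation and detoxification make substrates for the exporters, and 17 of them were measured. With 2 kidneys 3 were higher and 1 lower in SBH/y, beside 11.8% and 9.69% of all genes. With 1 kidney 8 were higher and 3 lower, beside 14.9% and 11.9%. The sulphotransferase Sult1c3, below the lowest array median in all 4 groups, was higher by 1.64 ± 0.12 (adjusted p = 1.74e-12) and 0.54 ± 0.12 (adjusted p = 0.000637), and the glutathione transferase Gsta3 was lower by -0.96 ± 0.10 (adjusted p = 1e-08) and -1.21 ± 0.10 (adjusted p = 6.53e-11). After uninephrectomy Gstp1 was higher in both strains, by 0.33 ± 0.07 in SBN/y (adjusted p = 0.022) and 0.55 ± 0.07 in SBH/y (adjusted p = 4.52e-06). The dim Sult1c3 was lower in SBH/y by -0.90 ± 0.12 (adjusted p = 6.63e-06) and differed by 0.19 ± 0.12 in SBN/y (adjusted p = 0.702). Its interaction of -1.10 ± 0.16 (adjusted p = 0.000741) was the 1 that passed among the 17. In SBH/y 4 enzymes of the list were higher and 2 lower, and in SBN/y 1 was higher and 0 lower. These counts were 4 and 3 in SBH/y without both clock-apart arrays, with Sult1a1 added, and 2 and 0 in SBN/y, with Gstm1 added.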

How the data were processed

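RNA of 28 rat kidney samples was measured on 1-colour Affymetrix arrays. The authors deposited 1 table of log2 values per probe set, made with GCOS and RMA per the submitters' processing notes (versions not given in the sources used here). RMA sets all arrays to 1 distribution, so a change in total RNA cannot be seen. The number of arrays limits the precision.

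Probe sets with exactly 1 symbol of the 6 families were members, 69 for 52 genes, and symbols were matched to RefSeq by gene identifier for all 52. Each gene was represented by its probe set of highest mean, and 57 control probe sets were left out. The members and the gene lists were chosen with earlier results of these data known. The model was fitted in limma 3.58.1 (R 4.3.3; lmFit and eBayes), with 1 mean per group over all 28 arrays and Benjamini-Hochberg adjustment over 31042 probe sets at a threshold of 0.05. Values after ± are standard errors, and intervals are 95% intervals of the fit without adjustment. Named in full were the 6 largest rises and falls among called members of each comparison and a panel of 24 kidney transporters, of which 20 had a probe set of their own; of each pathway list up to 4 called genes were named, and a few others were named after their values were seen. On simulated data the test recovered 41.8% of changes of 0.25 and 95.5% of 0.5 log2 units for the uninephrectomy effect in SBH/y, and 14.9% and 77.6% for the interaction. The simulation drew independent noise and changed fewer probe sets than were called in these data for either comparison. Its shares therefore do not carry over directly to these data.

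Alternatives were other scaling, filters, probe set rules, fits and a threshold of 0.01.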

Additional observations from a re-analysis of the deposited data

Results flagged for a closer look

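Within groups of 7 arrays, the lowest or highest array stood clear of the others, by Dixon's test at its 95% critical value, for 8 of the 104 gene and group pairs of the members named in full. About 1 pair in 20 is set apart by chance. Abcb10 was at 7.98 in SBN/y 1-kidney replicate 6, with its nearest neighbour at 8.36; the same array stood apart in clock genes. Abcg1 was at 6.91 in SBH/y 2-kidney replicate 6 (nearest 7.19), and Slc22a24 at 9.34 in SBH/y 1-kidney replicate 6 (nearest 9.76). Slc22a6 was at 10.43 in SBN/y 1-kidney replicate 2 (nearest 10.60) and at 10.62 in SBH/y 2-kidney replicate 2 (nearest 10.44). Slc22a8 was at 11.70 in SBH/y 2-kidney replicate 1 (nearest 11.59), Slc47a1 at 11.12 in SBH/y 2-kidney replicate 2 (nearest 11.25) and Slco2b1 at 6.75 in SBN/y 2-kidney replicate 7 (nearest 6.99).

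The uninephrectomy effect differed between the strains by the test of the interaction for 2 members, Abcc4, at 0.40 log2 units more in SBH/y, and Slc22a7, at -0.56 log2 units.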

How the results depend on the processing

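The number of members called between the strains stayed within 1.5 times its value of 21 with 2 kidneys and 25 with 1 kidney under every alternative run, and ranged from 19 to 23 and from 22 to 25 when 1 array was left out. For uninephrectomy in SBN/y the count of 1 became 2 without the dimmest 40% of probe sets, 0 in a fit of only the 2 groups and 0 at a threshold of 0.01, where limma gave 10 members at an unadjusted p under 0.05 in the fit of all arrays, and it ranged from 0 to 2 with 1 array left out. In SBH/y the count of 8 became 4 at a threshold of 0.01 and ranged from 4 to 12 with 1 array left out. For the interaction the count of 2 became 1 under median centring, 1 with trended and robust variance, 1 at a threshold of 0.01, 4 with array weights and 4 without both arrays apart in clock genes, and ranged from 1 to 3 with 1 array left out. Slc22a8 reversed when its probe sets were averaged, to -0.47 and -0.44, since its further probe set was lower in SBH/y. The Slc22a2 interaction passed with quantile normalization (adjusted p = 0.0455), without the dimmest probe sets (adjusted p = 0.0419) and with array weights (adjusted p = 0.0448). The cause of the other changes was not tested. Signal over background was not measured, so values of the 15 dim members are the least certain.

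With the replicate number as a block the counts were 23, 26, 1 and 11 for the strain differences with 2 and 1 kidneys and uninephrectomy in SBN/y and SBH/y, and 4 for the interaction, where Slc22a2 (adjusted p = 0.0243) and Slc22a23 (adjusted p = 0.0244) were added. The labels do not say what the number stands for, and the main fit did not use it. Of 42 same-number pairs 24 had a correlation of their deviations over 0.1 (-0.0948 to 0.586), and 10 of 28 samples correlated best with their own number. The median correlation was 0.16 for same-number pairs and -0.031 for pairs of different numbers. A link between samples of the same number therefore stays possible.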
